A study of Mus musculus with 12 samples.

Results

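The data described here are the m6A-bound and the unbound RNA of the asthma lung, measured side by side on 3 arrays. They make up 6 of the 12 samples in the series, 3 of bound RNA (IP) and 3 of unbound RNA (Sup), and the 2 samples with the same number share an array. Of the 56554 transcript probes on each array, the 36766 that were well above background in both fractions on all 3 asthma arrays were analysed (65.0%). The members were chosen by detection alone and not by their ratio.

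The asthma group consisted of female BALB/c mice that had intraperitoneal injections of 0.01% ovalbumin (OVA), an egg protein and common experimental allergen, on day 0 and day 7, and then breathed a 2.5% OVA aerosol 3 times a week for 7 weeks. The control group, also female BALB/c mice, received PBS by both routes. The sample labels give an age of 8 to 10 weeks, and the methods give 6 to 8 weeks. RNA was taken from whole lung, so every value is a mean over all cell types of the organ. No genetic change or other agent was named for either group.

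N6-methyladenosine (m6A) is a methyl mark on adenosines inside RNA, common in mRNAs and long non-coding RNAs (lncRNAs). It is written by a methyltransferase complex that contains METTL3, METTL14 and WTAP, removed by the demethylases FTO and ALKBH5, and read by proteins that steer splicing, translation and decay. In m6A immunoprecipitation an antibody pulls down RNA that carries the mark. In principle, an RNA with a larger share of marked copies is then found more in the bound fraction relative to the supernatant. The ratio measured here also varied with the brightness of the probe, as described below.

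Bound RNA always carried the dye Cy5 and unbound RNA always carried Cy3. The dyes were not swapped, so dye and fraction cannot be told apart, and a probe that takes up 1 dye better would give the same ratio as a transcript that favours 1 fraction. Each ratio is therefore given as log2 bound minus unbound relative to the median member probe of its array, and probes are ranked within the array. A value of 0 marks the median probe and does not mean equal amounts in both fractions. Before this centring the median was 0.20, 0.28 and 0.23 in asthma mice 1, 2 and 3, and 0.09, -0.14 and -0.16 in control mice 1, 2 and 3.

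In the bound fraction of the asthma mice, between 69.5% and 70.0% of the transcript probes stood well above background, and between 80.6% and 83.3% in the unbound fraction. Over the 3 asthma arrays, 3722 probes were above background in the unbound fraction on every array and in the bound fraction on none, whereas 76 showed the opposite. These probes have no measured ratio and are not among the 36766. The median local background was 19 to 20 in Cy5 (bound) and 12 in Cy3 (unbound) on the asthma arrays. Its part in these counts was not tested. None of the 45 negative control spots was above background in both fractions on all 3 arrays, and no transcript spot was saturated. By the array labels, slide 1 held all 3 asthma mice with control mouse 1, and slide 2 the other two control mice.

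Probes differed widely in their ratio of bound to unbound signal, and the ratio of a probe was much the same in each asthma mouse. The probe at the 90th percentile stood at 0.94, 0.97 and 0.87 on the log2 scale in asthma mice 1, 2 and 3, which is 1.92-fold, 1.95-fold and 1.83-fold more bound than the median probe. The probe at the 10th percentile stood at -0.84, -0.82 and -0.70. The SD of the mean ratio over probes was 0.70, against a median SD over the 3 mice of 0.11 for a single probe.

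A fold above 1.5 with an adjusted P below 0.05 (limma, Benjamini-Hochberg) was reached by 6584 probes that were higher in bound RNA, 17.9% of those tested, and by 5534 that were lower, 15.1% of those tested. At a fold above 2 these numbers were 3143 and 2296, and at a fold above 4 they were 219 and 219. An adjusted P below 0.05 at any fold was reached by 26192 probes. The test asks whether a probe differed from the median probe by more than its spread over 3 mice. The direction of a call rests on where 0 is set. With 0 set by the 114 spike-in probes, the median member stood at 0.27, 0.31 and 0.26 in asthma mice 1, 2 and 3, and 10694 probes were higher and 3059 lower. With loess of the ratio on brightness within each array, 5002 were higher and 6516 lower.

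**Figure D1:**
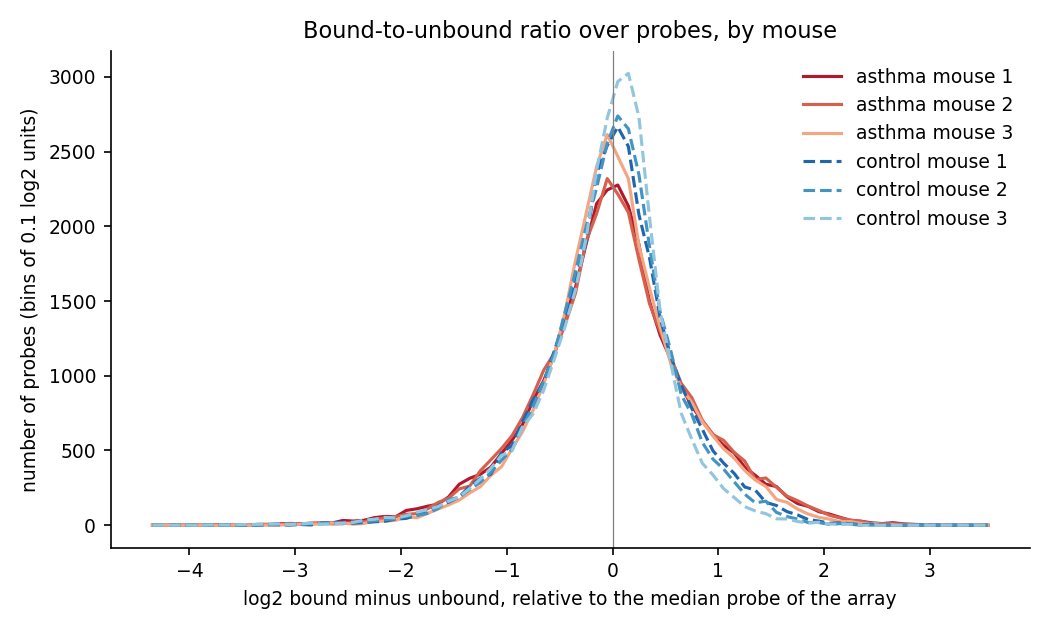
Number of probes (vertical axis, bins of 0.1 log2 units) at each log2 bound minus unbound ratio (horizontal axis), for the 32554 probes above background in both fractions on all 6 arrays, each array centred on its median probe. Solid red lines are the 3 asthma mice and dashed blue lines the 3 control mice, and the asthma curves are lower at the centre and fuller on the right.

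The ranking of probes within an array was closely shared by the asthma mice. Of the 3670 probes with the highest ratios on an array, 2829 (77.1%) were among the highest 3670 on all 3 arrays, and of the 3670 with the lowest ratios 2693 (73.4%) were among the lowest on all 3. In all, 1 probe was among the highest 3670 in one mouse and the lowest 3670 in another. The percentile of a probe spanned 8.12 points over the 3 mice in the median and 20.9 points at the 90th percentile of probes. Of 36691 probes measured on all 3 arrays, 30648 (83.5%) lay on the same side of the median in every mouse. Spearman's correlation across probes had a median of 0.94 over the 3 pairs of asthma mice. The probes of an array share its labelling, its antibody reaction and its dyes, so the correlation is a description of these arrays.

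**Figure D2:**
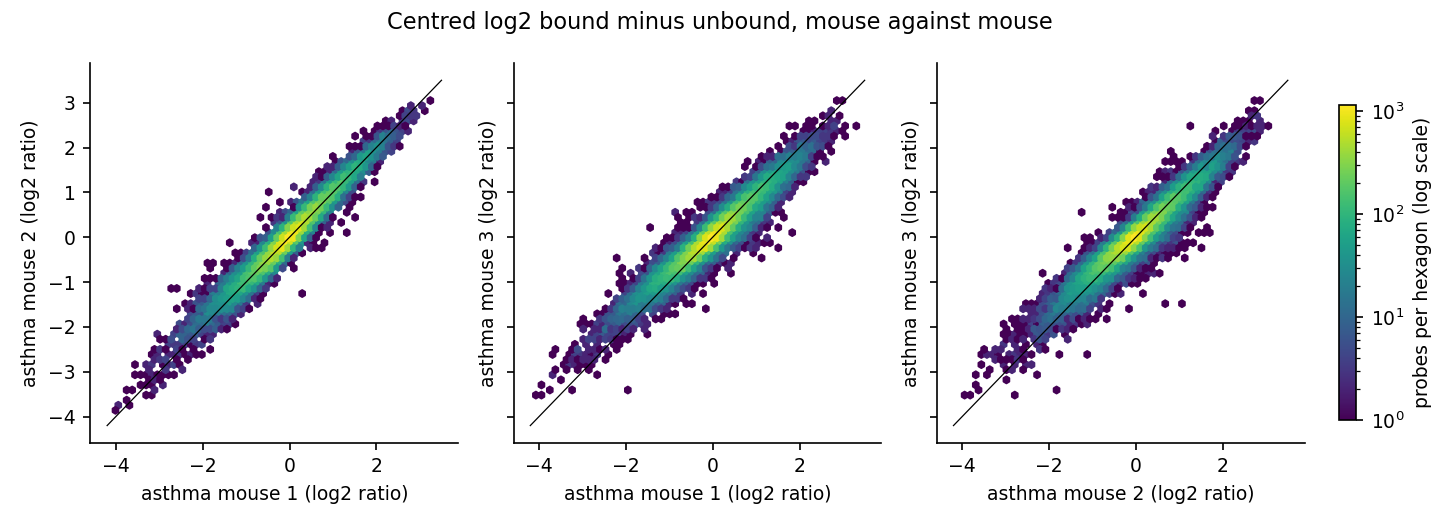
Each panel sets the centred log2 bound minus unbound ratio of one asthma mouse (horizontal axis) against another (vertical axis), with hexagons coloured by the number of probes on a log scale and a line of equality. The probes follow the line from about the lowest ratio to the highest, and in both panels with asthma mouse 3 they are flatter than the line, as its narrower percentiles show.

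The probes at both ends of the ranking stayed there in every mouse. The files do not pair these probes with genes, so they are given by their array names. ASMM10EP3A105977657 had a ratio of 3.01, 2.90 and 3.09 in asthma mice 1, 2 and 3 (limma standard error 0.07, adjusted P = 1.62e-07). ASMM10EP3A114909049 followed with 2.91, 2.86 and 2.68. At the other end, ASMM10EP3A127400893 had -4.06, -3.88 and -3.55, and ASMM10EP3A122844308 had -3.97, -3.80 and -3.47. The control mice stood in the same places, with 2.17 to 2.96 for the first of these probes and -4.29 to -3.19 for the third. These probes were picked as the extremes of the ranking, so their size is a description.

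Brighter probes had a wider range of ratios and a higher median ratio. Among the dimmest 3676 members the median ratio was -0.04, with the middle 80% between -0.25 and 0.17, and among the brightest 3677 it was 0.50, with the middle 80% between -1.10 and 1.61. Calls higher in bound RNA made up 0% of this dimmest set and 47.2% of the brightest. Calls lower in bound RNA made up 0.0544% of the dimmest set, 19.3% of the brightest and 24.3% of the set next to it. The offset of 50 that was added to each signal shrinks the ratio of dim probes before centring. The median SD over mice also rose with brightness, from 0.08 to 0.16. Across the members, the Spearman correlation of the ratio with brightness was 0.17, with the row of the spot -0.11 and with its column -0.01 (36766 probes that share 3 arrays). The part of brightness in the calls was not tested beyond the loess counts above.

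**Figure D3:**
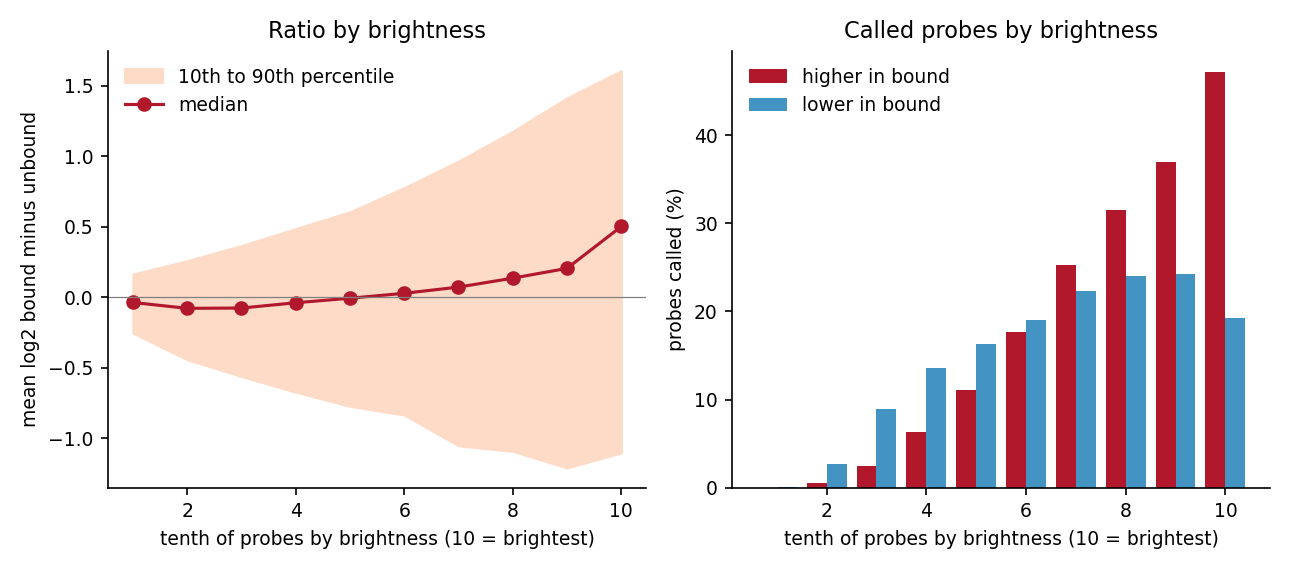
Left, the median (points) and the 10th to 90th percentile (band) of the mean log2 bound minus unbound ratio in asthma mice, for 10 equal groups of probes from dimmest to brightest. Right, the percentage of each group called higher (red) or lower (blue) in bound RNA, with 47.2% higher in the brightest group and 0% in the dimmest.

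The probe names fall into 2 series, which differed more in the share of higher calls than in that of lower ones. The larger series held 32328 members of 48057 probes (67.3%), of which 18.3% were called higher and 15.1% lower in bound RNA. The smaller series held 4438 members of 8497 probes (52.2%), with 667 higher (15.03%) and 663 lower (14.9%). The 90th percentile of the mean ratio was 0.93 in the larger series and 0.81 in the smaller one. Every mRNA described below that could be tied to a probe lies in the larger series and every lncRNA in the smaller one, but the files do not say that the series are RNA classes.

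The ratio of transcripts with a gene name could be read from probes that are repeated on the array. The array carries gene probes of the scanner's maker with 10 spots each, outside the transcript set. A RefSeq accession tied 44 of those described here to a gene symbol, and 37 of these were above background in both fractions in all 30 asthma spots. The SD over the 10 spots of an array was 0.15 in the median and the SD of the gene means over the 3 mice was 0.09. Of the 37 genes, 13 lay more than 1.5-fold above the median probe in all 3 asthma mice and 1, Prdx2, lay as far below it. The share of all members by this rule was not counted. By the different rule of the limma call, 17.9% of members were higher and 15.1% lower. The genes were not matched to members for brightness. These genes were chosen because they have names, are not members, and were not tested.

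The gene with the highest mean ratio was Anxa8, which encodes annexin A8, a calcium-dependent membrane-binding protein. Its ratio was 1.42, 1.49 and 1.37 in asthma mice 1, 2 and 3 (mean 1.43 ± 0.06, SD, n = 3), so it was 2.69-fold more bound than the median probe. Rab5a, the GTPase of early endosomes, had 1.41, 1.35 and 0.83, with asthma mouse 3 apart from the other two. Chgb, a granule protein of neuroendocrine cells, had 1.03, 1.08 and 0.97. All 3 genes stayed above 0 under every setting of signal and centring tried.

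Ppara, the nuclear receptor that drives fatty acid oxidation genes, had 0.83, 0.89 and 0.91. Cpt1a, which brings long-chain fatty acids into mitochondria and is a target of that receptor, had 0.72, 0.85 and 0.79. Pex11a, a protein of peroxisome division, had 0.45, 0.48 and 0.68, and Acaa2, a thiolase of mitochondrial fatty acid oxidation, had 0.37, 0.45 and 0.25. The first 3 of these 4 genes stayed above 0 under every setting tried, whereas Acaa2 changed sign, to -0.10 with the scanner's processed signal and to -0.15 with loess.

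Taf1a, a subunit of the factor that starts ribosomal RNA transcription, had 0.67, 1.05 and 0.89. Nup50, a nuclear pore protein, had 0.73, 0.74 and 0.77. Dnajc11, a mitochondrial inner-membrane organising protein, had 0.85, 0.92 and 0.88, and Cep41, a protein of the cilium and centrosome, had 0.88, 0.89 and 0.72. Gsdmd, the pore-forming protein of pyroptosis, had 0.74, 0.72 and 0.74. Alkbh4, a dioxygenase of the AlkB family, had 0.73, 0.76 and 0.73. Uhrf1bp1l had 0.71, 0.85 and 0.75. All of these stayed above 0 under every setting. Gpi1, a glycolytic enzyme, had 0.68, 0.83 and 0.66 but stood at -0.02 with loess.

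Actb, cytoplasmic beta-actin, had -0.57, -0.36 and -0.78 in asthma mice 1, 2 and 3. The glycolytic enzyme Gapdh has a pair of 10-spot probes, whose names end in 3 and 5. The first gave -0.58, -0.56 and -0.56 and the second -0.54, -0.42 and -0.55, so probes of 1 transcript gave like values. Prdx2, a peroxide-reducing enzyme abundant in red blood cells, had -0.83, -0.79 and -1.03, and was 1.85-fold less bound than the median probe. All of these stayed below 0 under every setting. Pgk1, another glycolytic enzyme, had 0.05, 0.17 and -0.05 with the probe that was above background, and its sign changed with the setting.

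Duox1, a hydrogen peroxide-producing oxidase of the airway epithelium, had -0.39, -0.71 and -0.54, and E2f1, a transcription factor of the cell cycle, had -0.37, -0.40 and -0.30. Cav2, a caveolin of membrane pits, had -0.10, -0.33 and -0.69, a wide spread over the mice. All 3 were below 0 under every setting. E2f1 was dim, with a mean log2 bound signal of 6.36 and unbound signal of 6.48 in the asthma mice. Il2, Spats1 and Lhx1 were left out of the 37 because some asthma spots were not above background. They too stayed below 0 under every setting, so a stable sign does not set E2f1 apart from them. Tyr, Gabrg1 and Hspb7, left out likewise, changed sign, and Kcnn2 stayed above 0. Gsta4, a glutathione transferase, had -0.38, -0.23 and -0.22, Mzb1, a protein of plasma cells and B cells, had -0.36, -0.18 and -0.07, and the ribosomal protein gene Rps4l had -0.22, -0.05 and -0.20. Each of these changed sign under 1 setting. Apoe, a lipid carrier abundant in macrophages, and H2-Q7, a class I histocompatibility gene, had 0.46, 0.42 and 0.52 and 0.42, 0.47 and 0.38, but fell to -0.40 and -0.42 with loess, so their direction is not settled. In all, 13 of the 37 genes changed sign under at least 1 setting.

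**Figure D4:**
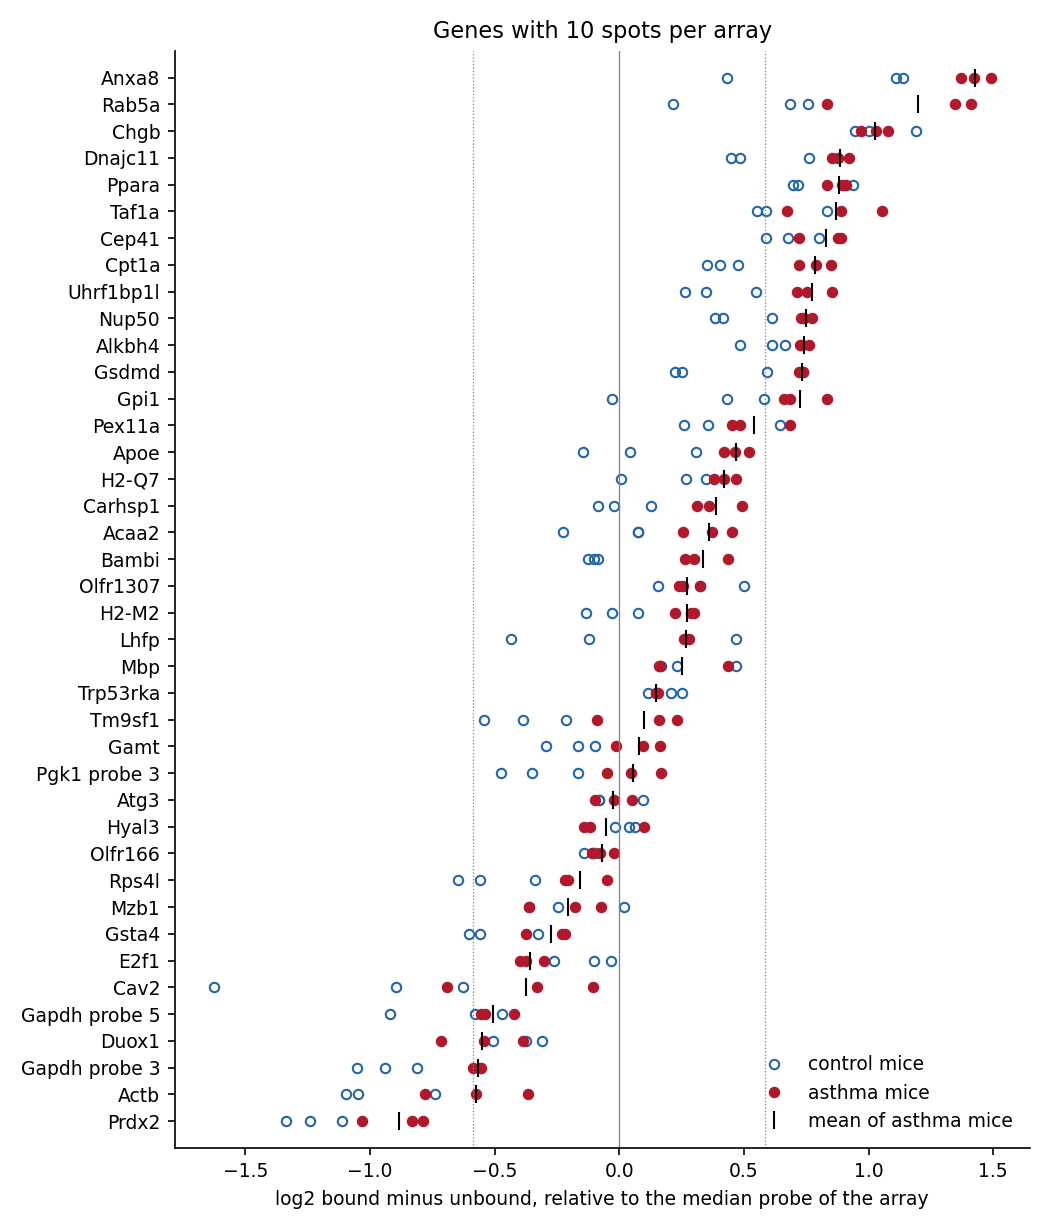
Log2 bound minus unbound relative to the median member probe of the array (horizontal axis) for each gene with 10 spots per array, in the 3 asthma mice (filled red), the 3 control mice (open blue) and as the mean of the asthma mice (bar). Dotted lines mark 1.5-fold on either side of 0, and genes run from Prdx2 at -0.88 to Anxa8 at 1.43.

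The study listed 40 transcripts for a difference in the bound fraction between asthma and control, 20 mRNAs and 20 lncRNAs. Each was tied to 1 probe through its printed fold change and P, which the deposited values return. They were chosen on the asthma bound signal, so their ratio is a description. Of the 40, 36 were members, of which 18 were called higher and 1 lower in bound RNA, and the other 17 did not pass. Over all members the shares were 17.9% higher and 15.1% lower. The listed transcripts were not matched to members for brightness. The median ratio of the 36 was 0.59. Among the 17 members listed as down in asthma, 12 were higher and 0 lower, with a median of 0.72. Among the 19 listed as up, 6 were higher and 1 lower, with a median of 0.48.

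The listed lncRNA RP23-436D9.1 and the mRNA Tmem252 had the highest ratios. RP23-436D9.1 had a log2 bound signal of 9.42, 9.27 and 9.26 and an unbound signal of 6.67, 6.67 and 6.51 in asthma mice 1, 2 and 3. Its ratio was 2.55, 2.32 and 2.52 (limma adjusted P = 1.78e-07), at percentiles 99.88, 99.77 and 99.96 of the arrays, and it lay between 2.15 and 2.68 in the control mice. Tmem252 had 1.72, 1.84 and 1.74 (standard error 0.07, limma adjusted P = 2.2e-07). These transcripts were listed as down in asthma and were more bound than the median probe in both groups.

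Genes of eosinophils, mucus cells and allergic mediators were among those listed as up. Rnase2a, an eosinophil ribonuclease, had a log2 bound signal of 12.62, 12.84 and 12.78 and an unbound signal of 11.59, 11.61 and 11.78 in asthma mice 1, 2 and 3. In the control mice the bound signal was 6.38 to 6.62 and the unbound signal 6.11 to 6.54, so the probe was brighter in both fractions of asthma lung. In whole lung, more cells of a type and more RNA per cell cannot be told apart. Its ratio was 0.83, 0.95 and 0.76 (limma adjusted P = 7.08e-06), but it fell under 1.5-fold with the scanner's processed signal, the deposited values or loess.

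Clca1, a secreted protein of mucus-producing goblet cells, had a ratio of 0.62, 0.56 and 0.69 (limma adjusted P = 3.76e-05). It fell under the call with 6 settings, no background correction, the smaller offset, the processed signal, the deposited values, loess and unpaired channels. Ptgdr, a receptor for prostaglandin D2, had 0.79, 0.83 and 0.66 (limma adjusted P = 1.37e-05). Slc26a4, the anion exchanger pendrin, had 0.42, 0.73 and 0.46 and did not pass 1.5-fold. Gcnt3, an enzyme that branches mucin sugars, had 0.30, 1.01 and 0.34, with asthma mouse 2 far above the other two, and did not pass 1.5-fold either.

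Genes of macrophages lay on either side of the median probe. Arg1, the arginase of alternatively activated macrophages, had 0.43, 0.40 and 0.39 and did not pass 1.5-fold. Chil4, a chitinase-like protein of allergic lung, had -0.57, -0.34 and -0.61, and Cd209e, a C-type lectin, had -0.07, -0.24 and -0.06. Neither of these was called. The lone transcript called lower was RP23-101F14.3, with -0.78, -0.85 and -1.39 (limma adjusted P = 5.46e-05), which was 2.0-fold less bound than the median probe.

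Most mRNAs listed as down in asthma were called higher in bound RNA, 7 of 9, against 18.3% of all members of the larger probe series. Fpr1, the formyl peptide receptor of neutrophils, had 0.70, 0.81 and 0.76. Its control values of 0.77 to 0.80 lay inside this range on the zero of the members. Fabp1, a fatty acid-binding protein best known from liver and gut, had 0.71, 0.79 and 0.58 in asthma and 0.53 to 0.80 in control mice. Dnajc28 had 0.94, 1.0 and 1.11, and Gemin8, a component of the complex that assembles spliceosomal RNA-protein particles, had 0.95, 1.02 and 0.79. Tbc1d4, a Rab GTPase-activating protein of glucose uptake, had 0.56, 0.94 and 1.01 and fell under the call without the empirical Bayes step and with unpaired channels. Hist1h3d, a replication-dependent histone gene, had 0.01, 0.17 and 0.00 and did not pass.

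Of the lncRNAs, 3 of the 10 listed as up and 5 of the 8 listed as down that were members were called higher, and none was called lower. In the smaller probe series, which holds them, 15.03% of all members were called higher and 14.9% lower. The lncRNA listed under the name Ntmt1 had 1.22 and 1.27 in asthma mice 1 and 2, while its spot in asthma mouse 3 was not uniform and was left out. The lncRNA listed under Saa3 had -0.71, -0.45 and -0.34 and did not pass. The 4 listed transcripts that are not members were Slc22a29, whose unbound signal was above background in 2 of 3 asthma mice, RP23-132N23.1, whose bound signal was so in 2 of 3, and Zfp287 and RP23-334L22.1, which were above background in neither fraction of any asthma mouse.

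**Figure D5:**
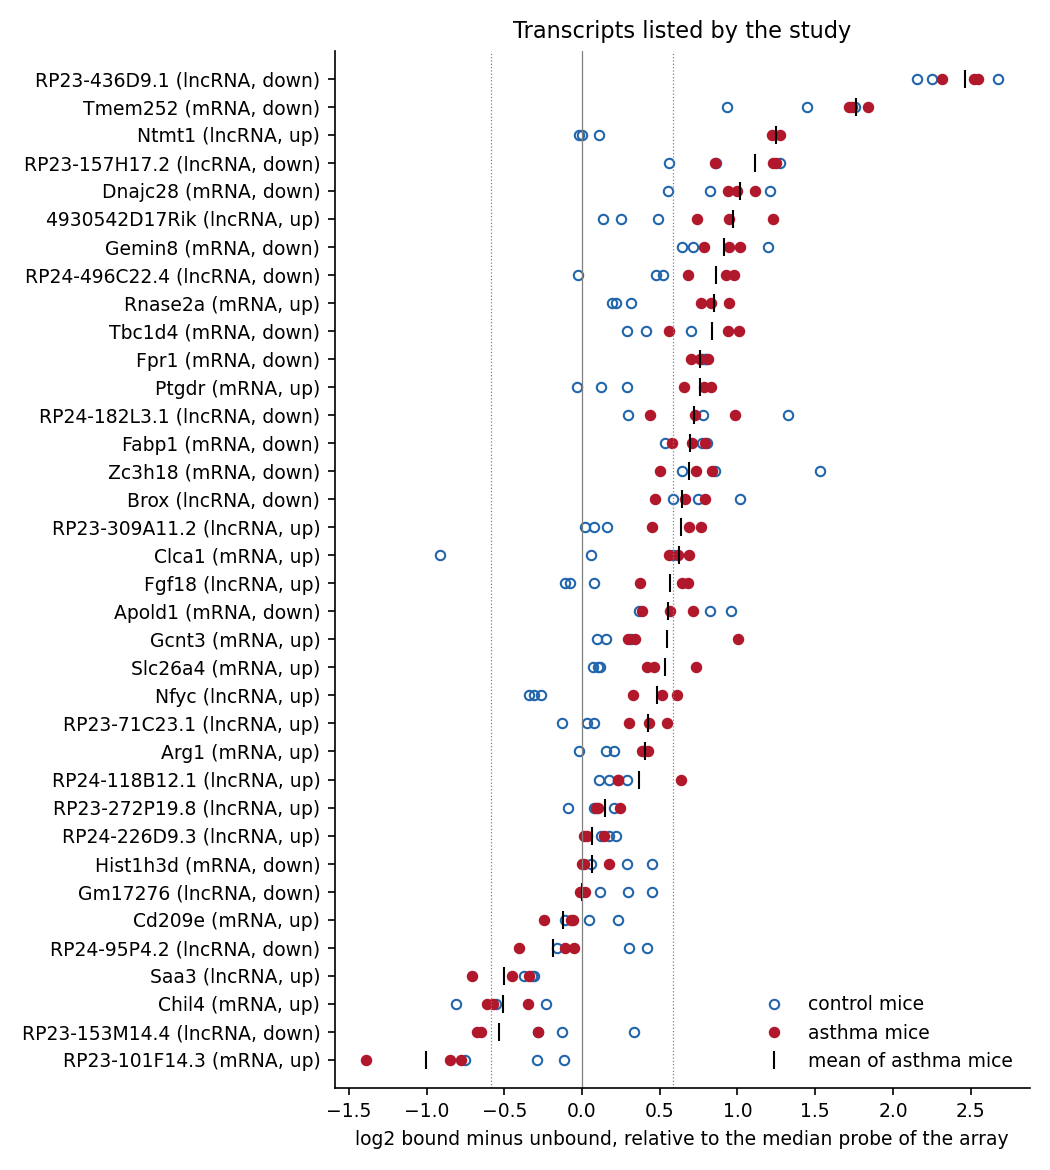
Log2 bound minus unbound relative to the median member probe of the array (horizontal axis) for the 36 listed transcripts that were members, with the class and the listed direction in asthma beside each name. Filled red points are asthma mice, open blue points control mice and bars the asthma means, with dotted lines at 1.5-fold, and 18 transcripts were called higher and 1 lower in bound RNA.

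The control mice, put through the same fit, had much the same order of ratios over probes. The spread was narrower in each of the 3 control mice than in any asthma mouse. For every comparison of the groups, each array was centred anew on the median of the 32554 probes above background in both fractions on all 6 arrays. This zero lay 0.04 to 0.05 above that of the members in the asthma mice and between -0.01 and 0.03 from it in the control mice. On these probes, 6067 were higher in bound RNA in asthma (18.6%) and 3818 in control mice (11.7%). Of these, 3704 were higher in both groups, which is 61.1% of the asthma set and 97.0% of the control set. The lower probes numbered 5615 in asthma and 5252 in control mice (16.1%), with 4534 in both (80.7% and 86.3%), and no probe was called in opposite directions. Spearman's correlation across probes lay between 0.94 and 0.96 among asthma mice, between 0.88 and 0.90 among control mice and between 0.85 and 0.92 across groups.

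The span from the 10th to the 90th percentile was 1.9, 1.9 and 1.7 in asthma mice 1, 2 and 3 and 1.6, 1.5 and 1.4 in control mice 1, 2 and 3, so the groups did not overlap. The asthma mice had a mean of 1.81 ± 0.13 (SD, n = 3) and the control mice one of 1.51 ± 0.09 (SD, n = 3). An exact two-sided permutation test of the span gave p = 0.1, which is the smallest value that 3 mice against 3 allow, so it could not pass a threshold of 0.05. Control mouse 1, on the same slide as the asthma mice, had the widest span of the control mice. The median bound signal of the arrays was also higher in asthma, 59 to 66 against 38.5 to 53, and its part in the spread was not tested.

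A direct test of the ratio between groups gave calls in one direction, but that direction depended on how the signal was processed. At a fold above 1.5 with an unadjusted P below 0.05, the thresholds of the study, 780 of the 32554 probes were higher in asthma (2.4%) and 20 were lower (0.0614%), so 97.5% of the calls were higher. After Benjamini-Hochberg adjustment of the limma P, 409 were higher and 6 lower (1.27% in either direction). With 0 set by the spike-in probes, 4485 were higher and 2 lower, and with 0 set by the members 1114 and 11. With the scanner's processed signal 111 were higher and 270 lower (29.1% higher), with the deposited log2 values 112 and 263 (29.9%), and with loess within arrays 55 and 70 (44.0%). With no background correction 258 of 384 calls were higher (67.2%), and with an offset of 16 they were 303 and 92 (76.7%). No probe passed the adjusted P in any of the last 5 of these settings.

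When slide entered the fit as a block, so that the comparison was made within slide 1, 1428 probes were higher and 120 lower and none passed the adjusted P. Slide 2 held control mice alone, so this fit set the asthma mice against control mouse 1 only. With the replicate number as a block the counts were 781 and 24, and again none passed after adjustment. The adjusted calls also rested on single mice, with none left without asthma mouse 1, asthma mouse 2 or control mouse 3, 238 without control mouse 2 and 1015 without asthma mouse 3.

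Among the listed transcripts, 23 could be compared between groups and 2 were called after adjustment. Both were listed for their bound signal in these same mice. On the scale of this comparison, the lncRNA listed under Nfyc had 0.47, 0.56 and 0.28 in asthma mice 1, 2 and 3 and -0.29, -0.31 and -0.33 in the control mice, a difference of 0.75 (limma standard error 0.11, adjusted P = 0.0389). The lncRNA listed under Ntmt1 had 1.18 and 1.22 in the 2 asthma mice with a usable spot and 0.08, 0.00 and 0.00 in the control mice, a difference of 1.18 (standard error 0.11, limma adjusted P = 0.0389). The groups did not overlap for either. Both probes were brighter in asthma. Under Ntmt1 the log2 bound signal was 11.94 and 11.84 in these 2 asthma mice and 6.73 to 7.76 in the control mice. The unbound signal was 10.51 and 10.29 against 6.84 to 7.91. Under Nfyc the bound signal was 9.22 to 11.17 against 7.40 to 7.93, and the unbound signal 8.66 to 10.45 against 7.91 to 8.39. The offset shrinks the ratio of dim probes before centring, and the part of brightness in these differences was not tested. The Nfyc call was lost under 12 of 21 other settings and the Ntmt1 call under 11, among them both blocks, the processed signal, loess, and leaving out asthma mouse 1, asthma mouse 2 or control mouse 3.

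Rnase2a had 0.79, 0.90 and 0.72 in asthma mice 1, 2 and 3 and 0.17, 0.22 and 0.33 in the control mice on the same scale. Its difference of 0.56 (limma adjusted P = 0.0412) was under 1.5-fold. With 0 set by the members it was 0.60 and above 1.5-fold (limma adjusted P = 0.0276), and with the processed signal it was -0.43, so its call rests on the zero and the signal used. The Rnase2a probe was dim in control mice, with a log2 bound signal of 6.38 to 6.62 and an unbound signal of 6.11 to 6.54. In asthma mice these were 12.62 to 12.84 and 11.59 to 11.78. The part of brightness in this difference was not tested. Fpr1 had 0.66, 0.76 and 0.71 in asthma and 0.76, 0.80 and 0.78 in control mice, a difference of -0.07 (limma adjusted P = 0.682). On this zero its asthma values, the highest at 0.761, lay below its control values, the lowest at 0.763.

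Of the 37 named genes with 10 spots, the 3 asthma mice lay above the 3 control mice for 18, below them for 2 and overlapped with them for 17. Over all probes the shares were 17.1% above and 10.8% below. Bambi, a decoy receptor that dampens TGF-beta signalling, had 0.22, 0.39 and 0.26 in asthma mice 1, 2 and 3 and -0.11, -0.10 and -0.11 in the control mice. With the scanner's processed signal the asthma mice lay above the control mice for 1 gene and below for 2, and with loess for 3 and 1, so the counts for this set of genes were not stable.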

How the data were processed

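Lung RNA was split by an anti-m6A antibody, labelled Cy5 (bound) and Cy3 (unbound) and hybridised to two-colour Arraystar 8×60K arrays. The authors used an Agilent scanner with Feature Extraction software. For every spot they deposited the median intensity and that of its local background, a processed signal that is background-subtracted and dye-normalized, and quality flags of value 0 or 1. A table of log2 values, deposited as well, equals the log2 processed signal less 1 constant per column. The 2 files of each array were identical and were read once. The labels number 3 replicates per group without saying that each is 1 animal, and "mouse" stands for such a replicate, so P measures the spread between these samples.

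The planned mean spot signal was not in the files and the median was used. Background was corrected by normexp in limma (offset 50). The log2 difference of bound and unbound signal was centred on the median member of each array. For tests and counts between the groups, and the values beside them, it was centred on the median of the probes above background on all 6 arrays. Non-uniform spots were left out (73 members lost 1 spot, 2 lost 2). An intercept was fitted over 3 asthma ratios, and 2 groups over 6, with limma 3.58.1 in R 4.3.3 and Benjamini-Hochberg adjustment over all probes. Bound and unbound channels of an array deviated together from their group means (correlations 0.82, 0.74 and 0.89). Both channels were read from the same spots, so this is no separate support for the pairing, which rests on the identical files. The fits were tested on simulated data. The number of arrays limits the precision.

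Genes named were the listed transcripts, the 2 highest and 2 lowest probes by mean rank, and, chosen after the files were seen, the genes with 10 spots, of which 1 is not reported here. The listed transcripts were matched within 1e-06 on the log2 scale. Members and lists were chosen with earlier results of these data known. Planned lists of m6A enzymes, gene families and cell type markers were not analysed here, because no table pairs the transcript probes with genes. The identity of the tissue was therefore not checked by markers.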

Additional observations from a re-analysis of the deposited data

Results flagged for a closer look

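After adjustment of the limma P, 409 probes had a higher bound-to-unbound ratio in asthma than in control mice and 6 a lower one. These calls did not hold under other settings. None passed the adjusted P with slide or the replicate number as a block, with the processed signal, the deposited values or loess, or without asthma mouse 1, and the processed signal turned the direction of the unadjusted calls (111 higher, 270 lower). The 2 control mice of slide 2 have no asthma mouse on their slide. Among the calls were the lncRNAs listed under Ntmt1 (by 1.18, from 2 asthma spots) and Nfyc (by 0.75), which the study had listed for their bound signal in these mice. Both probes were brighter in both fractions of asthma lung than in control lung. These 2 calls too were lost with either block, with the processed signal, the deposited values or loess, and without asthma mouse 1.

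The asthma and control mice lay on opposite sides of 0 for 2 further transcripts, and these differences were not tested. All 3 asthma mice had a positive ratio and all 3 control mice a negative one for Bambi, whose means were 0.40 apart. For the listed lncRNA Gm17276 the asthma mice stood between -0.07 and -0.02 and the control mice between 0.13 and 0.42, with a difference of -0.33. Its bound signal was above background in 2 of 3 control mice. With 0 set by the members instead, its asthma values were -0.01, -0.01 and 0.02. The probe was dim, with a log2 bound signal of 6.14 to 6.24 and an unbound signal of 5.88 to 6.04 in asthma mice. Tyr and Gabrg1, genes with 10 spots of which 0 were above background in both fractions, differed by -0.35 and -0.37 on the scale of the group comparison. The part of low signal in the Gm17276 difference was not tested.

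The arrays also carry 4087 spots with a small-RNA prefix, outside the transcript probes, of which 2167 (53.0%) passed the detection limit in both fractions on all 3 asthma arrays. Relative to the median member, their median ratio was -0.14, -0.18 and -0.15 in asthma mice 1, 2 and 3, and the middle 80% of their mean ratios lay between -1.60 and 0.41.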

How the results depend on the processing

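Signal over background limits most values, and 3 arrays a group allow no exact P below 0.1. The offset draws the ratio of dim probes toward 0 before centring, so after centring they are drawn away from 0 by the median of their array. Tyr, with 0 spots above background in both fractions, stood at -0.14, -0.20 and -0.18 in asthma mice 1, 2 and 3. In control mice 1, 2 and 3 it stood at -0.04, 0.20 and 0.23. No cause was tested for the changes that follow. In asthma mice, 6584 probes were higher and 5534 lower in bound RNA. The lower count was 8662 with no background correction and 10246 with the processed signal or the deposited values. With 0 set by spike-in probes the counts were 10694 and 3059, and at a fold above 2 they were 3143 and 2296, with 6 listed transcripts called in place of 19. Unpaired channels (no replicate block) gave 6522 and 4670. The median correlation of the ranking was 0.94, and 0.96 in the brighter part of the probes. Leaving out 1 asthma mouse gave 6395 to 6846 higher, 5349 to 5961 lower and 20 to 21 listed transcripts called.

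For the ratio between groups, 800 probes were called, 780 of them higher in asthma, and 415 were called after adjustment. No background correction gave 384, 258 and 0, offset 16 gave 395, 303 and 0, the processed signal 381, 111 and 0, the deposited values 375, 112 and 0, and loess 125, 55 and 0. Spike-in zero gave 4487, 4485 and 4288, no filter on dim probes 3832, 3829 and 3067, and slide as a block 1548, 1428 and 0. With 0 set by the members, an alternative added after seeing the data, they were 1125, 1114 and 757. A fold above 2 gave 7, 7 and 5. After adjustment, a brightness trend in the prior left 10, no empirical Bayes step left 0, and detection in at least 1 group gave 783. Same-numbered asthma and control mice did not deviate together (correlations -0.23, 0.13 and -0.02), and with the replicate block 0 passed. Leaving out 1 mouse gave 524 to 1622 calls, 517 to 1511 higher, and 0 to 1015 after adjustment. The difference in spread of 0.31 lay between 0.24 and 0.38 over the other signals, centrings and mice left out, which were added after seeing the data.

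Of the listed transcripts, 4 changed sign. Gm17276, at 0.00, became 0.38 with no background correction, 0.14 with offset 16, 0.69 with the processed signal and the deposited values, 0.28 with spike-in zero, 0.15 with loess, 0.13 with no filter, 0.031 with unpaired channels, and from -0.0098 to 0.0066 with 1 asthma mouse left out. Cd209e became 0.16 with spike-in zero and 0.0012 with no filter, RP24-95P4.2 became 0.093 with spike-in zero, and Fgf18 became -0.17 with loess. Over the listed transcripts, direction and call were unchanged in 574 values, a call was gained in 48 and lost in 31. For the genes with 10 spots, 201 values stayed within 1 SD over the mice and 199 moved by more than that.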
